A study of Mus musculus with 8 samples.

Results

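The 47 genes described here code for proteins that copy DNA and repair it, and were chosen by name across both fields. They cover origin licensing (3 genes), the MCM helicase (7), the polymerases and other fork factors (9), the replication checkpoint (5), signalling from DNA breaks (7), homologous recombination (7), the Fanconi anaemia pathway (4) and end joining with other repair (5). Their N6-methyladenosine (m6A) peaks were all peaks that shared at least 1 base, on the same strand, with their exons in the GENCODE annotation of mm10. These came to 191 of the 18895 peaks of DMSO-treated cells and 132 of the 13001 peaks of Dox-treated cells. The member written Claspn is claspin, which the annotation calls Clspn.

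The peaks came from methylated RNA immunoprecipitation sequencing (MeRIP-seq) of mouse embryonic stem cells of the E14 line. In this assay fragmented mRNA is pulled down with an antibody against m6A (IP) and sequenced beside RNA that was not pulled down (input). Cells were treated for 24 h with DMSO, the solvent, or with doxycycline (Dox), which in the study's line switches on a Dux transgene. Per the study, all groups carried this transgene and a tdTomato reporter driven by the Mervl promoter, and no sort of the cells is described for these libraries. The 8 libraries fall into 4 groups of 2, an IP and an input group for each treatment. The replicates of a treatment had been combined into 1 peak list, so no value below has a replicate error and treatments were not tested against each other. Dux is a transcription factor that moves stem cells toward a state resembling the 2-cell embryo, and the groups are a model of that state in 1 cell line only. The question the comparison addresses is where m6A lies on these mRNAs before and after Dux is switched on.

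Replication starts when origins are licensed by loading of the MCM helicase in G1 and fired in S phase, and the fork is then followed by polymerases, the sliding clamp and the ligase. Damaged or stalled forks are read by the kinases ATR and ATM and mended by homologous recombination, end joining or the Fanconi anaemia pathway. m6A is placed on mRNA by the METTL3-METTL14 complex, usually within a DRACH sequence of which GGAC is the commonest core, and lies mostly in long internal exons and around stop codons. Embryonic stem cells divide fast with a short G1 and express most of these genes throughout.

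All 8 pluripotency marker genes carried a peak in both lists. Dox peaks lay on 11 of 11 genes of the 2C-like state and DMSO peaks on 4 of these. None of 5 fibroblast and none of 5 endoderm marker genes carried a peak in either list. A peak is called only where the transcript is abundant enough and the libraries deep enough. Transcript levels and depth per library were not analysed here, and they cannot be told apart from a difference in methylation.

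The sequences of the 3 best-scoring member peaks of the DMSO list are shown first, because they stood far above the other member peaks and none of them held GGAC. The score is the authors' −log10 p-value of a peak, and every listed peak had at least 10. Capitals mark matches to DRACH (D is any base but C, R is A or G, H is any base but G). The Mcm3 peak lay at chr1:20805778-20805902 on the minus strand with a DMSO score of 125. The longer Parp1 peak lay at chr1:180591634-180592955 on the plus strand in 2 exon blocks with a score of 75.7, and the shorter one at chr1:180587256-180587280 with a score of 59.5. All coordinates are of GRCm38 (mm10), and sequences run 5′ to 3′.
Mcm3 peak of 125 nt: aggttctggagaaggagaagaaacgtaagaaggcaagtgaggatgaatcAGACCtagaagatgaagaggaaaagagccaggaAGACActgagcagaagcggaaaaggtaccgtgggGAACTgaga
Parp1 peak of 125 nt: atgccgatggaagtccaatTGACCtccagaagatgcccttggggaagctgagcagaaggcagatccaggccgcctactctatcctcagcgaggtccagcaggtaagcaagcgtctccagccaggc
Parp1 peak of 25 nt: cccAGACAagcccctgtcTAACAtg
Of their bases, 104 of 125, 84 of 125 and 20 of 25 lay in the exons of the gene's longest coding transcript. The other bases lay outside those exons.

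The next sequences are windows of 25 nt around the GGAC (capitals) nearest the middle of the best-scoring DMSO peak of 7 further genes. Of the 12 members with the highest scores, these 7 held GGAC in their best-scoring DMSO peak, and Mcm3, Parp1, Top2a, Mcm5 and Mcm7 did not. The Lig1 window lay at chr7:13285345-13285369 (plus strand), that of Timeless at chr10:128252037-128252061 (plus) and that of Pcna at chr2:132252940-132252964 (minus). That of Rfc1 lay at chr5:65313000-65313024 (minus), that of Brca1 at chr11:101525770-101525794 (minus) and that of Mdc1 at chr17:35854233-35854257 (plus). The Rpa1 window, at chr11:75314900-75316113 (minus), runs across a splice junction.
Lig1 exon 5: tgtgaaggggaGGACgaagatgaag
Rpa1 exon 9: ccagtccaagtGGACtatttgtgcc
Timeless exon 28: cggcaactgctGGACagcgacgaag
Pcna exon 1: gaggcctgctgGGACgtcagctcgg
Rfc1 exon 3: tccggtaaagaGGACgcctccaaac
Brca1 exon 10: cttcaacctgaGGACttcatcaaga
Mdc1 exon 12: aagagaaagagGGACcatgcagaag
All 7 windows lay in coding sequence. In the Lig1, Pcna and Rfc1 windows the GGAC is followed by G, so it is not a match to DRACH.

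Peaks were found on 39 of the 47 genes in DMSO (83.0%) and on 34 in Dox (72.3%). Of all 22028 protein-coding genes, 27.5% carried a DMSO peak and 22.1% a Dox peak. The members are longer than most genes, with a median exonic length of 6115 nt against 3488 nt. Among protein-coding genes of at least 6115 nt, 44.6% carried a DMSO peak and 35.7% a Dox peak. No member had a peak only in Dox. The 8 members with no peak in either list were Atr and Chek1 (the kinases of the replication checkpoint), Chek2 (a kinase downstream of ATM), Wrn (a RecQ helicase), Fanca and Fancd2 (of the Fanconi core complex and its substrate), Prkdc (the catalytic subunit of DNA-PK) and Polq (the polymerase of theta-mediated end joining). Their exonic lengths ran from 3001 nt for Chek2 to 23629 nt for Atr.

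The 5 members with a DMSO peak and no Dox peak were Pola1, Pold1, Topbp1, Rad54l and Xrcc5, which is 12.8% of 39 members beside 22% of all protein-coding genes with a DMSO peak. Pola1, the catalytic subunit of primase-associated polymerase alpha, had 3 DMSO peaks over 275 nt, all in exons 2 to 4 near the start of its coding sequence. Topbp1, an activator of ATR, had 3 peaks over 125 nt. Pold1, the catalytic subunit of polymerase delta, had 2 peaks over 50 nt and Xrcc5, the Ku80 subunit that binds broken ends, had 2 over 175 nt. Rad54l, a motor protein of strand exchange, had 1 peak of 175 nt, which lay in an exon outside its longest coding transcript and had a score of 10.5. The best scores of the other 4 ran from 12.3 for Pola1 to 13.7 for Pold1. None of the 11 peaks was longer than 175 nt. The best scores lay at the 11.1 percentile of the DMSO list for Rad54l and between the 65.5 and the 82.7 percentile for the other 4. The best-scoring peak held no GGAC for Pold1 and a GGAC for Xrcc5. The GGAC of Xrcc5 is followed by G, so it is not a match to DRACH. Capitals mark the GAACT of Pold1 at chr7:44540556-44540581 (minus) and the GGAC of Xrcc5 at chr1:72346396-72346420 (plus).
Pold1 exon 10: tacaacattcaGAACTttgacctccc
Xrcc5 exon 15: gtgactgctcaGGACgttttccaag

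Member exon bases in peaks came to 35665 nt in DMSO and 22040 nt in Dox, a ratio of 1.62. Its 95% interval of counting error, taken from the peak numbers, was 1.30 to 2.02. The ratio over all protein-coding genes was 1.47, within that interval. The ratio of peak numbers was 1.45 for members (95% interval of counting error 1.16 to 1.81) and 1.45 for the whole lists. By neither ratio did the members stand apart. More bases were covered in DMSO for 38 of the 39 genes with a peak (97.4%), and Palb2 was equal at 150 nt in each. No member had more bases covered in Dox. Of all protein-coding genes with a peak, 86.7% had more bases covered in DMSO and 8.55% more in Dox. By number of peaks, 26 members had more in DMSO (66.7%), 3 had more in Dox and 10 were equal, beside 59.1% and 12.7% of all genes. The DMSO list is longer than the Dox list, so the comparison was repeated with only the 13001 top-scoring DMSO peaks. Then 36 of 38 members had more bases in DMSO, the exceptions being Mcm3 and Palb2, beside 72.8% of all genes. The ratio of bases was 1.45 for members (interval 1.14 to 1.83) and 1.28 for all genes.

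**Figure D1:**
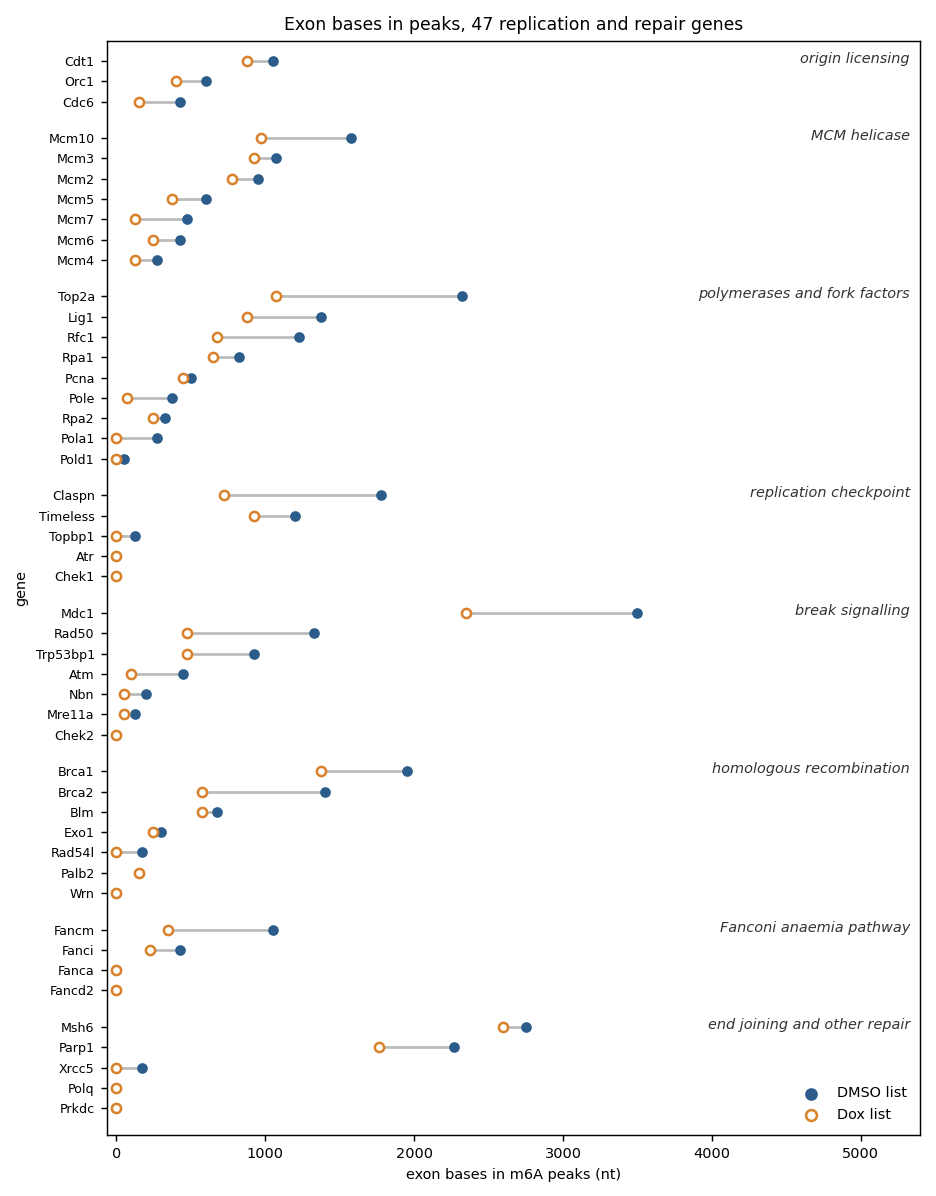
Exon bases in peaks (nt) for each of the 47 genes, grouped by role, with filled points for the DMSO list and open points for the Dox list. The open point lies to the left of the filled point in 38 genes, both coincide for Palb2 at 150 nt, and 8 genes lie at 0 in both lists.

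The 3 licensing genes had 14 DMSO and 9 Dox peaks, and 2075 and 1425 nt covered. Cdt1, which loads the MCM complex and is destroyed in S phase, had 4 peaks in each list and 1050 against 875 nt, so that 33.4% and 27.9% of its exon bases lay in peaks. Orc1, the largest subunit of the origin recognition complex, had 600 and 400 nt. Cdc6, its partner in loading, had 425 and 150 nt, but parts of its sequence occur at 1 other locus at 98% identity.

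All 7 MCM genes carried peaks in both lists, 34 in DMSO and 22 in Dox, over 5375 and 3550 nt. Mcm10, a fork protein that activates the helicase, had the most bases with 1575 nt in DMSO and 975 nt in Dox. Of the helicase subunits, Mcm3 (1075 and 925 nt) and Mcm2 (950 and 775 nt) had the most bases, and Mcm4 had 275 and 125 nt. Mcm7 had 5 DMSO peaks over 475 nt and 1 Dox peak over 125 nt, which lay within the best-scoring of its DMSO peaks. Although fewer bases were covered, the score of that Mcm7 peak was 14.9 in DMSO and 16.7 in Dox. It matched another locus at 98% identity in DMSO and 97.6% in Dox. The other coding DMSO peaks of Mcm7 did so at 97% or more, so its values are uncertain where reads could come from the copy. Mcm5 had 600 and 375 nt and Mcm6 425 and 250 nt.

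The polymerases and fork factors had 44 DMSO and 28 Dox peaks over 7275 and 4050 nt, a ratio of 1.80. Top2a, the topoisomerase that untangles replicated strands, had 13 peaks over 2325 nt in DMSO and 5 peaks over 1075 nt in Dox. Of its 8 DMSO peaks with no Dox counterpart, 7 lay in exons 2 to 25 of 36, upstream of the best-scoring peak. Of these, the peaks in exons 2, 12, 16 and 23 matched another locus at 90% identity or more. No match was found for those in exons 5, 8 and 25, but the exon 5 peak of 25 nt is so short that an inexact copy could be missed. The values of the matching peaks are uncertain where reads could come from the copy. Of its DMSO bases without a Dox peak, 975 nt lay in peaks absent from the Dox list and 275 nt at the edges of peaks still present. Lig1, which seals Okazaki fragments, had 1375 and 875 nt, and Rfc1, the large subunit of the clamp loader, 1225 and 675 nt. Rpa1, which coats single-stranded DNA, had 6 peaks in each list, all overlapping, with 825 and 650 nt. Pcna, the sliding clamp, had 3 peaks in DMSO and 4 in Dox because 1 DMSO peak of 350 nt met 2 Dox peaks, and the bases covered were 500 and 450 nt. Pole, the leading-strand polymerase, had 375 and 75 nt, and Rpa2 325 and 250 nt.

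The replication checkpoint was split between genes with many peaks and genes with none. Claspn, the adaptor through which ATR reaches CHK1, had 9 peaks over 1775 nt in DMSO and 6 over 725 nt in Dox. Timeless, which holds the polymerase and helicase together, had 6 and 4 peaks over 1200 and 925 nt. Atr and Chek1 themselves carried none, and Topbp1 only the short DMSO peaks given above.

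Genes of break signalling had 26 DMSO and 22 Dox peaks over 6525 and 3500 nt. Mdc1, the scaffold that binds phosphorylated H2AX, had the most covered bases of all members in DMSO, 3500 nt in 7 peaks, and 2350 nt in 10 Dox peaks. All 7 DMSO peaks of Mdc1 were met by a Dox peak, and the 1175 nt without a Dox peak lay at their edges or between the pieces. Of the MRE11 complex, Rad50 had 1325 and 475 nt, Nbn 200 and 50 nt and Mre11a 125 and 50 nt. Trp53bp1, which favours end joining, had 925 and 475 nt, and Atm, the kinase activated by breaks, 450 and 100 nt.

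Of the homologous recombination genes, Brca1 had 10 DMSO and 8 Dox peaks over 1950 and 1375 nt, and Brca2, a mediator of recombination, had 10 and 5 peaks over 1400 and 575 nt. Blm, a helicase that dissolves crossover intermediates, had 675 and 575 nt. Exo1, a resecting nuclease, had 1 peak in each list of 300 and 250 nt. Palb2, the bridge between BRCA1 and BRCA2, had 3 DMSO peaks and 1 Dox peak that covered 150 nt in each list but shared only 50 nt.

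In the Fanconi anaemia pathway, Fancm, the translocase that recruits the core complex, had 6 DMSO peaks over 1050 nt and 3 Dox peaks over 350 nt, and Fanci, the partner of FANCD2, 425 and 225 nt in 2 peaks each. The ratio of bases over the group was 2.57, the highest of the 8 groups, and it rests on these genes alone. The lowest, 1.19, was that of end joining and other repair. There Parp1, the sensor of strand breaks, had 14 peaks in each list over 2265 and 1765 nt. Msh6, which reads mismatches, had 2750 nt in 2 DMSO peaks and 2600 nt in 4 Dox peaks. With 63.3% and 59.8% of its exon bases in peaks, Msh6 was the most covered of all members in either list. Members with 10 or more DMSO peaks were Parp1, Top2a, Brca1 and Brca2, 8.51% of the 47 beside 0.944% of all protein-coding genes.

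Nearly every Dox peak lay on a DMSO peak. Of the member Dox peaks, 129 of 132 (97.7%, Wilson 95% interval 93.5 to 99.2) were overlapped by a DMSO peak, beside 92.7% of all Dox peaks. Of the member DMSO peaks, 113 of 191 (59.2%, 52.1 to 65.9) were overlapped by a Dox peak, beside 57% of all. The intervals cover counting error only, and peaks of 1 gene share their transcript. The 3 Dox-only peaks, on Mcm2, Mcm4 and Mdc1, were 25 nt long and within 200 nt of the stop codon. By base, 21540 nt were covered in both lists, which is 60.4% of the DMSO bases and 97.7% of the Dox bases. Of the 14125 DMSO bases outside Dox peaks, 6550 nt (46.4%) lay in whole peaks with no Dox counterpart and 7575 nt were trimmed from peaks that had one. Whole peaks and peak edges thus made up similar parts of the difference. The 78 DMSO peaks without a counterpart had a median length of 75 nt and a median score of 11.2, and the 113 with one had 200 nt and 12.7. Over all DMSO peaks the medians were 50 nt and 11.02 without a counterpart and 200 nt and 12.2 with one.

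Where 1 DMSO peak met 1 Dox peak, the DMSO peak was longer in 70 of 89 pairs (78.7%), the Dox peak in 2, and 17 were equal, beside 68.9% with the longer peak in DMSO over all such pairs. The median length was 175 nt in DMSO and 125 nt in Dox. In 18 places 1 DMSO peak met several Dox peaks, and in 3 places the reverse was seen. The same counts were not taken over all peaks, so they cannot be read as particular to these genes. The widest was a DMSO peak of 2000 nt on Msh6 that met 3 Dox peaks sharing 1850 nt with it. Brca1 had 3 such broken peaks and Mdc1, Claspn and Parp1 had 2 each.

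**Figure D2:**
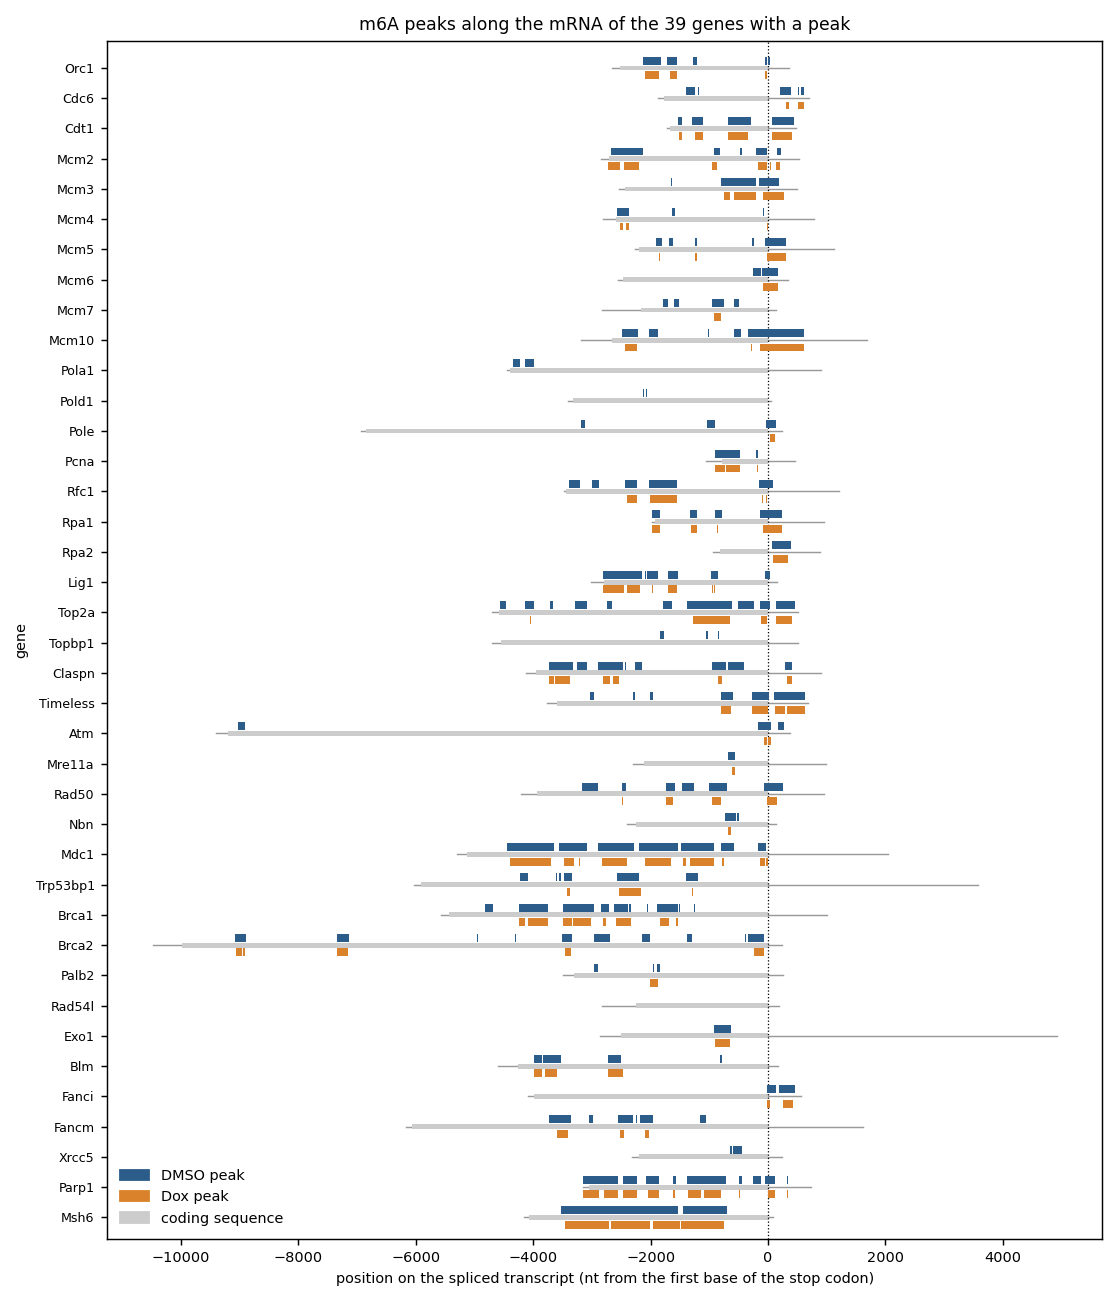
Peaks along the longest coding transcript of the 39 genes with a peak, in nt from the first base of the stop codon (dotted line), with DMSO peaks above and Dox peaks below each transcript (thin line, coding sequence in grey). Dox peaks sit within or beside DMSO peaks in nearly all places. Bases outside the longest coding transcript are not drawn, which leaves out the single peak of Rad54l and others such as a DMSO peak of Mcm7.

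By the middle base of the peak, 163 of 185 DMSO peaks on the longest coding transcript (88.1%) and 106 of 129 Dox peaks (82.2%) were coding, beside 71.9% and 71% of all peaks. The coding sequence made up 77.9% of the transcript bases of members with a peak and 53.7% of those of all genes with one, so the transcripts themselves differ in this way. Within 200 nt of the stop codon lay 12.4% of member DMSO peaks and 17.8% of member Dox peaks, beside 22.9% and 25.1% of all peaks. By base, 30.5% of the member sequence in that window was in a DMSO peak and 21.2% in a Dox peak, against 32.7% and 24.1% over all genes with a peak in either list. By the middle base, no member DMSO peak lay in the 5′ untranslated region (0 of 185, Wilson upper bound 2.03%) and 1 Dox peak did, on Pcna. Over all peaks the shares were 3.41% in DMSO and 3.86% in Dox. Some member DMSO peaks with a coding middle base reached into that region. Among them was the Pcna peak of 350 nt that overlapped this Dox peak.

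Exon length was considered next, because m6A is known to lie in long exons. Of the coding peaks, 32.5% (25.8 to 40.0) in DMSO and 45.3% (36.1 to 54.8) in Dox lay in exons of 400 nt or more, beside 51.1% and 59.9% of all coding peaks. Only 21.6% of the coding bases of these genes lie in such exons, against 34.0% over all genes with a peak. For the same 39 genes, peaks covered 45.2% of coding bases in long exons in DMSO and 32.7% in Dox, and 14.7% and 6.91% of coding bases in shorter exons. This was 9846 nt in Dox against 13625 nt in DMSO for long exons, and 7576 against 16082 nt for short exons. Over all genes with a peak the shares were 39.6% and 29.8% for long and 10.3% and 5.50% for short exons. Peaks that ran over a splice junction made up 42.9% of member DMSO peaks and 33.3% of member Dox peaks, beside 26.4% and 21.8% of all peaks. Both shares of members were above those of the lists, and both were lower in Dox. In transcript bases, 64.4% of the sequence of these genes lay within 100 nt of a junction, but 49.6% of the DMSO peak bases and 38.3% of the Dox peak bases did. Over all coding genes with a peak the shares were 39.9%, 30.9% and 25.6%, so the lower shares of peak bases were not particular to the members.

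The very long coding exons showed how unevenly single exons were covered. Of 10 wholly coding exons of 1000 nt or more, 8 had more bases in peaks in DMSO and 2 were equal. Exon 4 of Msh6 (2536 nt) was covered over 97.0% in DMSO and 96.1% in Dox, so it was nearly filled in both. Exon 5 of Mdc1 (1343 nt) had 86.7% and 67.0% and its exon 10 (1474 nt) 83.5% and 61.1%. Exon 10 of Brca1 (3315 nt), which encodes most of the protein, had 56.7% and 41.5%. Exon 14 of Fancm (1864 nt) had 51.0% and 18.8%, and exon 12 of Trp53bp1 (1297 nt) 25.1% and 3.86%, and these exons differed most by ratio. Exon 11 of Brca2, the longest at 4809 nt, which encodes the BRC repeats, had 8.84% and 5.72%, and its exon 10 (1107 nt) 18.1% and 11.3%. Exon 4 of Palb2 (1395 nt) had 10.8% in each list. Exon 16 of Polq, of 2981 nt, held no peak. Exons of similar length thus ranged widely in cover.

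**Figure D3:**
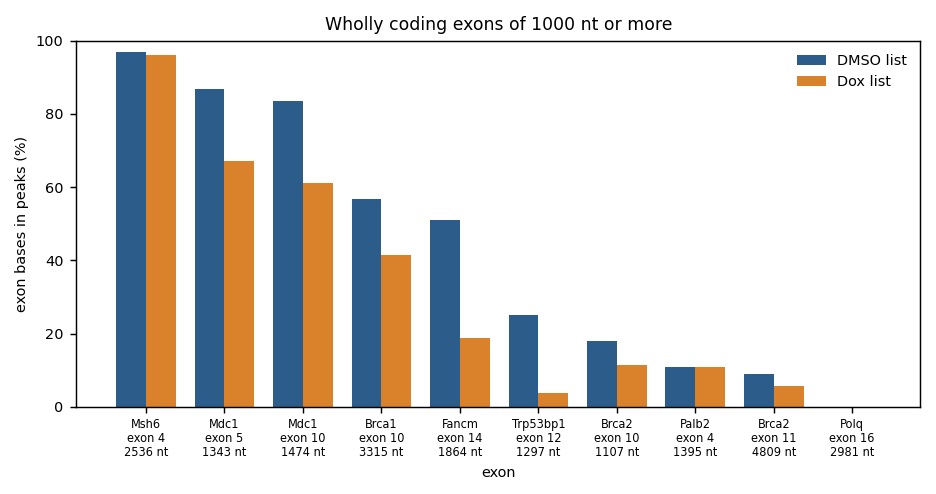
Share of exon bases in peaks (%) for the 10 wholly coding exons of 1000 nt or more, with 1 bar for the DMSO list and 1 for the Dox list and no replicate error. The bars run from 97.0% and 96.1% for exon 4 of Msh6 to 0% in both lists for exon 16 of Polq.

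Scores differed most in a handful of peaks. The Mcm3 peak printed above, in exon 14, was called with the same edges in both lists and had a score of 125 in DMSO and 37.3 in Dox. The longer Parp1 peak, in exon 15, also had the same edges and scored 75.7 and 30.6, and the shorter Parp1 peak, in exon 9, scored 59.5 and 44.2. These 3 stood above the 99th percentile of scores in each list. The largest difference in the other direction was in the 3′ untranslated region of Parp1, where a peak of 175 nt in DMSO scored 11.8 and its Dox counterpart of 125 nt scored 24.7. The best peak of Lig1 scored 34.6 in DMSO and 16.9 in Dox, that of Rpa1 28.6 and 18.0 and that of Top2a 26.2 and 16.6. Over the 89 pairs the DMSO score was higher in 65 (73.0%, beside 66.1% of all such pairs), with medians of 12.7 and 11.7. A score depends on depth and transcript abundance as well as on enrichment, and it was not compared across lists as a level of methylation.

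**Figure D4:**
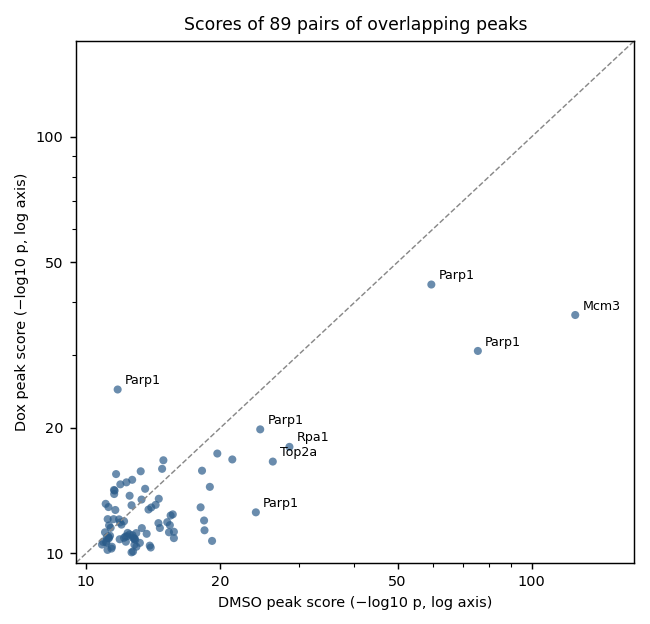
Score (−log10 p, both axes logarithmic) of the DMSO peak against the Dox peak in the 89 member pairs of 1 DMSO and 1 Dox peak, each point 1 pair, with the dashed line marking equal scores. The Mcm3 point lies at 125 and 37.3, and the 1 Parp1 point high above the line at 11.8 and 24.7.

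GGAC was found in 97 of 191 member DMSO peaks (50.8%, 43.8 to 57.8) and in 65 of 132 member Dox peaks (49.2%, 40.9 to 57.7), beside 54% and 55.9% of all peaks. The motif was searched on the strand of the peak and a longer peak holds it more often, so shares were also taken over peaks of 75 to 300 nt. There they were 53.6% and 60.8%, beside 59.8% and 62.2%. Of member DMSO peaks with a Dox counterpart 64.6% held GGAC, and of those without one 30.8%, beside 69.2% and 33.9% of all DMSO peaks. The peaks with a counterpart were also longer, and within 75 to 300 nt the shares were 59.7% and 44.2% for members and 65.3% and 50.1% for all DMSO peaks. Per 1000 bases of transcript there were 5.66 GGAC inside member DMSO peaks and 3.76 outside them, and 5.78 and 3.75 in and outside Dox peaks of genes with a Dox peak. Over all coding genes with a peak in the same list, the values were 6.27 and 3.85 in DMSO and 6.69 and 3.88 in Dox. DRACH, which contains GGAC followed by any base but G, was found in 82.7% and 82.6% of member peaks, beside 84.9% and 85.4% of all peaks. Of the 10 best-scoring member peaks of each list, 6 held GGAC and all 10 held DRACH. A match is a description of the letters and not a mapped m6A.

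Another 106 genes of replication and repair gave a wider view of the pathways. Peaks were listed for 72 of them in DMSO (67.9%) and for 57 in Dox (53.8%), beside 27.5% and 22.1% of all protein-coding genes. Both lists named 56 of these genes, and Rfc3, a small clamp loader subunit, was in the Dox list only. The DMSO list alone named 16 of the 72, beside 22% of all protein-coding genes with a DMSO peak. Peaks of the 106 genes numbered 202 and 123 and covered 37786 nt in DMSO and 25836 nt in Dox. Over all protein-coding genes 3627993 and 2465749 nt were covered, a ratio of 1.47. More bases were covered in DMSO for 65 and in Dox for 6 of the genes with a peak. These genes are the 56 in both lists, the 16 in DMSO alone and Rfc3. Among members with a peak the counts were 38 and 0 of 39. Over all protein-coding genes with a peak the shares were 86.7% and 8.55%. Those with the most DMSO peaks were Ticrr, which fires origins (12 peaks in DMSO and 7 in Dox), Slx4, a scaffold of nucleases (12 and 11), and Xrcc1, a scaffold of single-strand break repair (7 and 4).

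Some member sequences occur elsewhere in the genome. Over at least 90% of their length and at 98% identity or more, 6 DMSO peaks (on Cdc6, Mcm4, Mcm7 and Pcna) and 6 Dox peaks (on Cdc6, Pcna and Top2a) matched another locus. All 4 Dox peaks of Pcna were among them, so its values are uncertain where reads could come from the copy. At 90% identity or more, 21 DMSO peaks on 8 genes and 12 Dox peaks on 8 genes matched another locus. These included all peaks of Mcm6, most of those of Mcm7 and several of Top2a. The search could miss inexact copies of the shortest peaks, so the counts of matching peaks may be too low. A Cdc6 DMSO peak of 25 nt gave no match, although a Dox peak that holds it matched at 96%. The peaks of Parp1 over exons 8 and 9 also lie over Mir6904, a microRNA gene on the same strand.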

How the data were processed

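Per the study's methods, mRNA was fragmented and pulled down with an m6A antibody, reads were trimmed with fastp (0.19.4) and aligned to mm10 with HISAT2 (2.2.1), and peaks were called with exomePeak2, whose version is not given in the sources used here. The deposited lists, 1 per treatment, give each peak's exon blocks and a score, read as the authors' −log10 p-value (4 infinite). Depth per library was not analysed here. Inner block edges lay at annotated exon edges in 99.8% of cases in each list, as a check of the build.

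Peaks were assigned to genes by same-strand exon overlap of at least 1 base in GENCODE vM21. Positions used the transcript with the longest coding sequence and the middle base of the peak. Wilson 95% intervals cover counting error. Other loci were searched with BLAST+ 2.17.0 on the C57BL/6J sequences without patches. Python 3.11.15, scipy 1.17.1 and pysam 0.24.0 were used. On 200 simulated peaks placed on genes drawn at random from 153, the gene, overlap, position and length steps recovered 100%.

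Members, lists and alternatives were chosen with earlier results of these data known. All 47 members were counted, and those named are the members with a peak in 1 list only or in neither, the 12 with most DMSO bases, the 12 with the highest scores and, beside these, the rest of each role group. The windows follow the best-scoring DMSO peaks of the 12. The 3 whole peak sequences, the long exons and the genes near copies were chosen after their values were seen.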

Additional observations from a re-analysis of the deposited data

How the results depend on the processing

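No paired analysis was possible because the replicates were already combined in 1 list a treatment, and for the same reason no replicate could be left out. Of 75 values recomputed for 13 results, 50 stayed within the counting interval or within 1.5 times the count, and 25 moved. A reversal was defined only for the ratio of covered bases, where none was seen. With a score of at least 15 in both lists, 15 members kept a DMSO and 11 a Dox peak, with 30 and 18 peaks. The overlapped shares were then 36.7% of DMSO and 61.1% of Dox peaks, the long-exon shares 8.33% and 21.4%, and the GGAC shares 63.3% and 61.1%. The intervals of counting error of these long-exon shares were 2.32% to 25.8% in DMSO and 7.57% to 47.6% in Dox. They rest on few peaks, and the Dox interval holds the main share of 45.3%. With DMSO cut to its 13001 top peaks, the overlapped shares were 71.1% and 90.2% and GGAC was in 58.5% of DMSO peaks. With at least 50% of both peaks shared, 42.9% and 62.1% were overlapped, and 47.6% of DMSO peaks with 50% of the peak itself. Within 400 nt of the stop codon lay 20.5% and 25.6%, and in exons of 800 nt or more 22.7% and 30.2%. GGACT was in 20.9% and 20.5%, DRACH in 82.7% and 82.6%, and GGAC in 60.8% of Dox peaks of 75 to 300 nt. Leaving out Parp1, or the peaks that match another locus at 90% identity or more, both chosen after the data were seen, moved none of the 13. The ratio of covered bases ran from 1.45 to 1.78 over all alternatives. With a score of at least 15 in both lists, its interval of counting error was 0.99 to 3.19. Peak calls near the lowest score depend on depth, which was not analysed here.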

Other observations

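The best-scoring member peaks often ran past the exons of the longest coding transcript of the gene. Of the 10 best-scoring DMSO peaks, 8 held bases outside those exons, against 38 of the other 181. Of the 10 best-scoring Dox peaks 7 did, against 20 of the other 122. Whether such bases belong to other transcripts of the same gene was not counted. Of the 10 best-scoring DMSO peaks, 7 lay on Parp1, Mcm3 or Rpa1, so these peaks are few genes and not independent. The Mcm3 peak that scored 125 in DMSO and 37.3 in Dox had 21 of its 125 bases outside that transcript. The pattern was noticed after the scores were seen, and its relation to the score was not tested.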
